A study of Homo sapiens with 6 samples.

Results

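A group of 10 genes of the epidermal growth factor receptor (EGFR) system were followed in Huh7 cells before and after lenvatinib resistance. They were chosen by symbol, with earlier results of these data known. They comprised the receptor EGFR, its 7 ligand genes AREG, EREG, BTC, HBEGF, TGFA, EGF and EPGN, and the receptor brakes ERRFI1 and LRIG1. All 10 are among the 19974 annotated genes of the deposited table, and 7 of them had enough counts to test. Huh7 P is the untreated parental human hepatocellular carcinoma line (time 0), and Huh7 LR was derived from it over 10 months under lenvatinib at 1 to 20 μM and was then kept at 20 μM. Lenvatinib inhibits VEGF, FGF and PDGF receptors, KIT and RET, and EGFR is not among its main targets. Both lines carry the genotype label WT, each gave 3 independent RNA samples from culture plates, and a single resistant line stands for resistance. The p-values therefore measure the spread between samples of these lines, and the drug level in the plates used for RNA is not stated.

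EGFR is a receptor tyrosine kinase at the cell surface that is switched on when a ligand brings receptor molecules together. The ligands are made as membrane-anchored precursors and are released by ADAM proteases, after which they act on the same or on neighbouring cells. Amphiregulin, epiregulin, betacellulin, HB-EGF, TGF-alpha, EGF and epigen are encoded by AREG, EREG, BTC, HBEGF, TGFA, EGF and EPGN. ERRFI1 (also called MIG6) binds the kinase domain and blocks it, and LRIG1 is a transmembrane protein that lowers receptor levels. In liver, EGFR ligands are known as hepatocyte mitogens during regeneration.

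The libraries held between 62738937 and 71427573 reads counted on genes and loci, so that a count of 0 allows up to 3 counts, or 0.0418 to 0.0486 CPM (counts scaled to a common library size, with totals adjusted by edgeR's TMM method), for counting error only. All 8 hepatocyte markers examined, ALB, AFP and HNF4A among them, had a mean of at least 1 CPM, and 4 of the 8 were higher in Huh7 LR. Their summed level was 43498 to 52591 CPM in Huh7 P and 54989 to 58034 CPM in Huh7 LR. Of markers of other cells, the 7 fibroblast genes summed to 2.16 to 2.28 CPM in Huh7 P and 5.02 to 8.02 CPM in Huh7 LR, with THY1 and FAP at 0. The 7 leukocyte genes summed to 62.0 to 67.6 CPM and 9.84 to 13.8 CPM, mostly from LYZ, with TYROBP and HLA-DRA among those at 0. The 5 endothelial genes summed to 38.8 to 47.5 CPM and 65.0 to 71.2 CPM, mostly from PECAM1, with CDH5, KDR and TEK at 0. The part of these shifts in the results was not tested. In such bulk RNA, more cells that express a gene and more RNA per cell cannot be told apart.

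Of the 7 testable genes, 5 were higher in Huh7 LR, 0 were lower and 2 did not pass, where a difference needed an adjusted p under 0.05 in the quasi-likelihood test of edgeR over all 17531 genes and loci. Over the whole table, 23.3% of features were higher, 22.4% lower and 45.7% differed in either direction. The 5 genes were EGFR and the ligand genes AREG, BTC, HBEGF and EGF, and in each of them all Huh7 LR libraries lay above all Huh7 P libraries. Groups did not overlap in 55.9% of all features. AREG, BTC and HBEGF also passed 2-fold at an adjusted p under 0.001, which 4.43% of all features did in the higher direction, 1.78% in the lower and 6.21% in either. The median log2 fold change of the 7 genes was 0.84, beside 0.00 over all features, for members chosen with earlier results known.

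**Figure D1:**
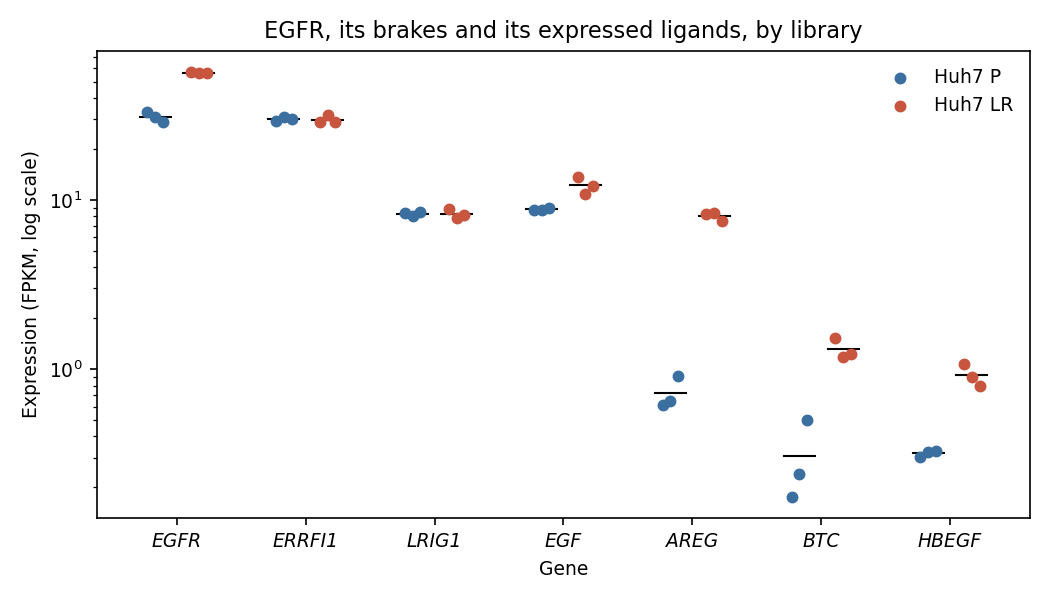
Expression of the 7 testable genes in FPKM (fragments per kilobase of transcript, scaled to library size, log axis), 1 point per library and a line at each mean. EGFR, EGF, AREG, BTC and HBEGF sit higher in all Huh7 LR libraries, while ERRFI1 and LRIG1 overlap between the lines.

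EGFR itself (ENSG00000146648, chromosome 7, 55019021 to 55211628, plus strand of GRCh38 in GENCODE release 29) stood at or near the top of the members in both lines. It had 33.1, 31.0 and 28.7 FPKM in the Huh7 P libraries and 57.0, 56.1 and 56.0 FPKM in the Huh7 LR libraries, where FPKM is the deposited value scaled for transcript length and library size, from 20249 to 41475 counts per library. The Huh7 LR libraries were nearly equal and stood clear of Huh7 P. The rise was 1.79-fold (95% interval 1.61 to 1.99, adjusted p = 5.22e-06 by edgeR's test), so that the interval lay below 2-fold. An antisense gene, EGFR-AS1, shares 186 exon bases with EGFR and is not listed in the table. The library kit as named does not mark strand, so reads from the pair cannot be told apart.

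AREG (ENSG00000109321, chromosome 4, 74445134 to 74455009, plus strand) showed the largest change among the tested members. Amphiregulin is a low-affinity EGFR ligand that is induced in injured liver. Its transcript was counted 59, 55 and 82 times in the Huh7 P libraries and 711, 781 and 677 times in those of Huh7 LR. On the FPKM scale this made 0.612, 0.652 and 0.911 for Huh7 P, against 8.31, 8.35 and 7.48 for Huh7 LR. The lines were thus separated by more than the range within either one, and Huh7 P replicate 3 was the highest of the parental libraries. The rise was 10.8-fold (95% interval 8.27 to 14.0, adjusted p = 2.24e-07 from edgeR's test).

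BTC (ENSG00000174808, chromosome 4, 74744759 to 74794686, minus strand) encodes betacellulin, which binds ERBB4 as well as EGFR. The parental libraries gave 39, 46 and 101 counts, and the resistant libraries 290, 245 and 239. Huh7 P replicate 3 again stood above the other parental libraries, and no library of one line reached the other. The mean rose from 0.945 ± 0.529 CPM to 3.82 ± 0.548 CPM (SD, n = 3), 4.04-fold with a 95% interval of 2.48 to 6.58 (adjusted p = 4.24e-04 from edgeR's test). Without Huh7 P replicate 3 the log2 fold change moved from 2.02 to 2.57.

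HBEGF (ENSG00000113070, chromosome 5, 140332843 to 140346631, minus strand) encodes HB-EGF, a ligand that binds heparan sulfate. The parental libraries held 57, 53 and 56 counts of it, and the resistant libraries 176, 161 and 139. The parental libraries were close to each other and all lay under the resistant ones. The rise was 2.80-fold (95% interval 2.06 to 3.80, adjusted p = 1.46e-04 from edgeR's test). The place of BTC and HBEGF past 2-fold at an adjusted p under 0.001 was not stable. Without Huh7 P replicate 1 the adjusted p was 0.00182 for BTC and 0.00125 for HBEGF, and without Huh7 P replicate 2 it was 0.00313 and 0.00101, which left AREG as the 1 member past 2-fold. HBEGF alone was lost without Huh7 P replicate 3 (adjusted p = 0.00114), and BTC alone without Huh7 LR replicate 2 (0.00117) or 3 (0.00175). With limma-trend on log2(FPKM + 1), which shortens the change of low genes, the log2 fold change was 0.83 for BTC and 0.54 for HBEGF, both under 2-fold, and 2.39 for AREG. With limma-trend on log2(FPKM + 0.1) and no filter, the adjusted p was 0.00493 for BTC and 0.00236 for HBEGF.

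EGF (ENSG00000138798, chromosome 4, 109912884 to 110012266, plus strand), which encodes the founding ligand of the family, was by far the most abundant ligand transcript in Huh7 P. It had 8.77, 8.68 and 9.02 FPKM in Huh7 P and 13.6, 10.9 and 12.1 FPKM in Huh7 LR. The resistant libraries were more spread than the parental ones and all lay above them. The rise of 1.37-fold (95% interval 1.20 to 1.55, adjusted p = 0.00116 from edgeR's test) was smaller than those of AREG, BTC and HBEGF, whose intervals began at 2.06 or above.

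The remaining ligand genes were silent or close to it. EREG (chromosome 4, 74365143 to 74388751) and TGFA (chromosome 2, 70447280 to 70554193) had 0 counts in all 6 libraries, which allows up to 3 counts in each. EPGN (chromosome 4, 74308473 to 74315307) had 10 counts in Huh7 P replicate 1 and 0 counts in the other libraries. None of the 3 genes could be tested. A count of 0 in every library was found for 15.9% of the annotated genes.

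**Figure D2:**
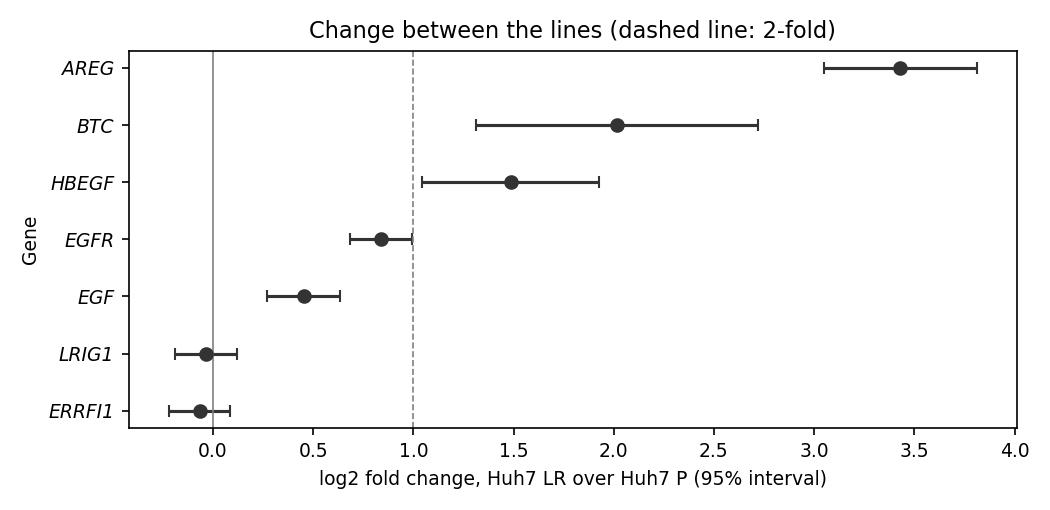
Log2 fold changes of the 7 tested genes, Huh7 LR over Huh7 P, with 95% intervals from edgeR's quasi-likelihood fit. AREG, BTC and HBEGF have intervals above the dashed 2-fold line, EGFR lies below it, and the intervals of ERRFI1 and LRIG1 include 0.

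The make-up of the ligand pool was compared on FPKM values, which account for transcript length. The 7 ligands summed to 9.97, 9.89 and 10.8 FPKM in Huh7 P and to 24.5, 21.3 and 21.6 FPKM in Huh7 LR, a 2.20-fold higher mean. Without EGF the sums were 1.20, 1.22 and 1.74 FPKM against 10.9, 10.4 and 9.51 FPKM, 7.43-fold higher. No library of one line reached the other in either sum (two-sided exact permutation test, p = 0.1, the smallest p that 3 samples against 3 allow).

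EGF took 88.0%, 87.7% and 83.9% of the summed ligand FPKM before resistance, and 55.5%, 51.2% and 56.0% after it. AREG took 6.14%, 6.60% and 8.47% in the parental libraries and 33.9%, 39.1% and 34.6% in the resistant ones. The AREG share was therefore 28.8 percentage points higher in Huh7 LR and the EGF share differed by -32.3 points, both far beyond the range within a line. BTC moved from 2.94% ± 1.50 to 5.82% ± 0.370 (SD, n = 3), and HBEGF from 3.12% ± 0.141 to 4.08% ± 0.346 (SD, n = 3). Each of these 4 shares gave p = 0.1 in the exact permutation test, and 0.125 when adjusted over the 5 ligands with any counts. The AREG transcript went from 0.0820 ± 0.0167 to 0.665 ± 0.0871 per EGF transcript (SD, n = 3, ratio of FPKM). On CPM, which gives long transcripts such as EGF more weight, the AREG share was 11.6 points higher and the EGF share differed by -15.6 points. The summed ligands were 1.64-fold higher on CPM.

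**Figure D3:**
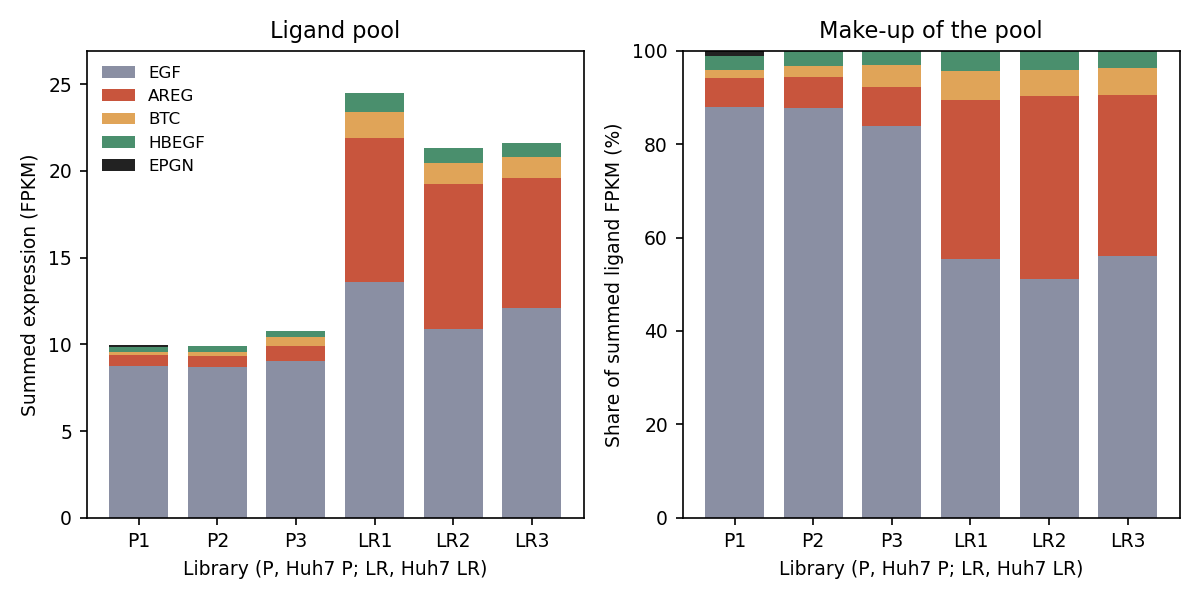
Summed ligand expression (left, FPKM) and the share of each ligand in it (right, percent) in each library, stacked by ligand, with EREG and TGFA at 0. The summed level is 9.89 to 10.8 FPKM in Huh7 P and 21.3 to 24.5 FPKM in Huh7 LR, and the AREG share is 33.9% to 39.1% in Huh7 LR.

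The brakes on the receptor did not pass the test. ERRFI1 (ENSG00000116285, chromosome 1, 8004404 to 8026308, minus strand) had 29.3, 30.9 and 30.3 FPKM in Huh7 P and 28.7, 31.6 and 28.9 FPKM in Huh7 LR. Its libraries were interleaved, with a fold of 0.956 (95% interval 0.860 to 1.06, adjusted p = 0.472 from edgeR's test). LRIG1 (ENSG00000144749, chromosome 3, 66378797 to 66501263, minus strand) had 8.40, 8.03 and 8.43 FPKM in Huh7 P and 8.79, 7.82 and 8.11 FPKM in Huh7 LR. The lines again overlapped, with a fold of 0.975 (95% interval 0.876 to 1.09, adjusted p = 0.710 from edgeR's test). ERRFI1 shares 155 exon bases with the antisense gene AL034417.4, which is not listed either. LRIG1 shares 907 exon bases with SLC25A26 on the opposite strand, and the log2 fold change was -0.06 when both genes were summed.

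The brakes were also set against the receptor as ratios of FPKM, which were computed after the levels had been seen. Per EGFR transcript, ERRFI1 stood at 0.885, 0.996 and 1.05 in the parental libraries and at 0.503, 0.563 and 0.515 in the resistant ones. The same ratio for LRIG1 was 0.254, 0.259 and 0.293, against 0.154, 0.139 and 0.145 after resistance. Since the brake levels overlapped between the lines and EGFR did not, these ratios restate the EGFR rise and are given with no test.

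The order of the levels changed for some members. In Huh7 P, EGFR (30.9 FPKM) and ERRFI1 (30.1 FPKM) overlapped at the top, followed by EGF (8.82), LRIG1 (8.29), AREG (0.725), HBEGF (0.318) and BTC (0.305), with the last pair overlapping. In Huh7 LR, EGFR (56.4 FPKM) was clear of ERRFI1 (29.7), followed by EGF (12.2), LRIG1 (8.24), AREG (8.04), BTC (1.31) and HBEGF (0.919). AREG and LRIG1 overlapped there, so that AREG had come from well below the LRIG1 level to the same range.

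The promoters of the 3 ligand genes past 2-fold are shown because these genes moved in the same direction, and their starts differ in the letters they hold. Each line gives the 250 bases before the gene start from RefSeq (GRCh38.p14), 5′ to 3′ on the strand of the gene. The GENCODE starts of AREG (74445134), BTC (74794686) and HBEGF (140346631) lie inside these windows. Part of each window, largest for BTC, is thus within the gene as placed above. Capitals mark matches on either strand to 4 motifs. The cyclic AMP response element (CRE), which CREB factors bind, was searched as TGACGTCA. The AP-1 element, bound by FOS and JUN proteins, was searched as TGANTCA with any base at N. The GC box, bound by SP1 and its relatives, was searched as GGGCGG in the same windows. The TATA box, where TBP binds, was searched as TATAAA and no other spelling was tried.
AREG promoter, chr4:74444886-74445135, plus strand: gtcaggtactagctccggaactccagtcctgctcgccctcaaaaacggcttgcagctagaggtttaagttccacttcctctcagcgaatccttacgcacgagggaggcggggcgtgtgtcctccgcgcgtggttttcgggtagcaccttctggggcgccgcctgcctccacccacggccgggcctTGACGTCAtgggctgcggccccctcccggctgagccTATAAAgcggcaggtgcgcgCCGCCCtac
BTC promoter, chr4:74794524-74794773, minus strand: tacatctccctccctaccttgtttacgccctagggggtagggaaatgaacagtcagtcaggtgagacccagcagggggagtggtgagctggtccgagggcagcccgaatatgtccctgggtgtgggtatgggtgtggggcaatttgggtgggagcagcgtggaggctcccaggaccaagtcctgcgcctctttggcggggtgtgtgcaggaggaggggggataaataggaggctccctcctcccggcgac
HBEGF promoter, chr5:140346604-140346853, minus strand: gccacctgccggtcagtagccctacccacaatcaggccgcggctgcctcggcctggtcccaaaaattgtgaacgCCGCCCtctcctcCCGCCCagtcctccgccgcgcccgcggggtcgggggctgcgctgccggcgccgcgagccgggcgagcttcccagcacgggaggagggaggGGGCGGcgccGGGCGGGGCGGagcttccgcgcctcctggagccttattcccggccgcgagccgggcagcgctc
The AREG window holds 1 CRE that begins 65 bases before the start, 1 TATA box at 29 bases and 1 GC box at 9 bases. The HBEGF window holds 5 GC box matches between 176 and 58 bases before the start, of which the last pair shares 1 base, and none of the other 3 motifs. The BTC window holds none of the 4. Among 27305 RefSeq promoters of the same length, 1.77% hold a CRE, 6.60% AP-1, 42.3% a GC box and 11.1% a TATA box. These matches describe letters, and binding was not measured here.

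AREG, EREG, EPGN and BTC lie in one stretch of chromosome 4, and within 1 Mb on either side of it 16 other listed genes were tested. Of these, 4 were higher, 1 was lower and 11 did not pass, beside 23.3% higher and 22.4% lower over all features, with a median log2 fold change of 0.09. The chemokine gene CXCL1 (log2 fold change 1.59, adjusted p = 2.44e-04 from edgeR's test) and PARM1 (1.03, adjusted p = 1.84e-06) were past 2-fold. CXCL1, CXCL2 and CXCL3 are close paralogues, and counting may have split reads between them. EREG and EPGN, at or near 0, lie between MTHFD2L (-0.47, adjusted p = 0.0614) and AREG.

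Around EGFR on chromosome 7, 12 other listed genes within 1 Mb were tested, and 3 were higher and 0 lower, beside the same shares of all features, with a median log2 fold change of 0.12. The nearest tested genes on either side, SEC61G (0.04, adjusted p = 0.670) and LANCL2 (0.11, adjusted p = 0.564), did not pass edgeR's test. SUMF2, named here after its value was seen, had a log2 fold change of 0.89, near that of EGFR. None of these neighbours was past 2-fold.

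**Figure D4:**
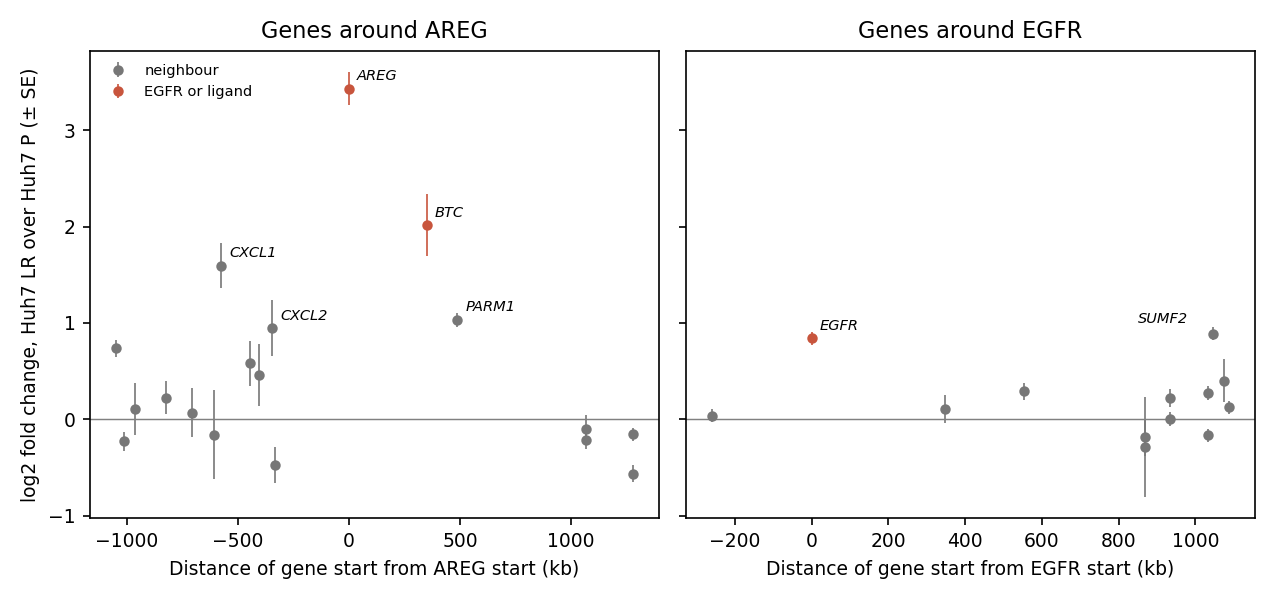
Log2 fold changes (± standard error) of tested genes within 1 Mb of the AREG cluster (left) and of EGFR (right), by distance in kb from the start of AREG or EGFR. AREG and BTC stand above every tested neighbour, while SUMF2 lies near the value of EGFR.

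The genes whose profile over the 6 libraries was nearest to that of EGFR, by Euclidean distance of log2(CPM + 1) centred on the Huh7 P mean, were HAPLN4 (distance 0.0653), TMEM88 (0.0726) and NFATC2 (0.0741) among 12516 annotated genes. Nearest to AREG were MVB12B (distance 0.300), CA4 (0.358) and ANKRD6 (0.369). MVB12B had a mean of 2.61 CPM in Huh7 P and 20.1 CPM in Huh7 LR. The added 1 shortens the change of low genes such as TMEM88 (0.258 and 1.21 CPM). These distances are descriptions and were not tested.

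Other genes of the pathway were read from the same fit in 6 lists written from general knowledge. In the list of ERBB partners and neuregulins, 5 of the 7 listed genes could be tested, and ERBB4 and NRG2 had too few counts. All 5 had higher values in Huh7 LR, beside 23.3% of all features, but the count is not read further. NRG1, named after its values were seen, was counted 5, 9 and 13 times in the parental libraries and 56, 40 and 37 times in the resistant ones, so that it could be tested only through its high group. With at least 10 counts required in every library, 4 genes of the list were tested and higher. NRG3, a neuregulin that binds ERBB4, rose from 0.485 ± 0.0465 to 3.69 ± 0.135 CPM (SD, n = 3, adjusted p = 1.05e-06 from edgeR's test). NRG4 had a log2 fold change of 1.55, from 0.657 to 1.93 CPM. Its sum with FBXO22, a gene that shares exon bases with it, had -0.24 (adjusted p = 0.0206 from edgeR's test). Since the NRG4 counts rose, the fall of this sum comes from FBXO22 and does not measure NRG4. With genes that share exons summed, a setting added after the values were seen, 4 of the 5 were higher. The 1 that was lower was the sum of NRG4 and FBXO22. No median is read from so few genes, since it rests on NRG1 and NRG4.

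Of 11 tested genes of ligand release, 4 were higher, 5 were lower and 2 did not pass, beside 23.3% higher and 22.4% lower over all features, with a median log2 fold change of -0.03. With genes that share exons summed, 4 were lower, since ADAM15 summed with DCST1 no longer passed (adjusted p = 0.0702 from edgeR's test). CD9, a tetraspanin that associates with the HB-EGF precursor, rose 1.51-fold, and FRMD8, which stabilises ADAM17 through iRhom proteins, rose 1.46-fold. ADAM9, a membrane metalloprotease, fell from 299 ± 13.2 to 179 ± 12.4 CPM (SD, n = 3). RHBDF2, which encodes iRhom2, a partner of ADAM17, fell from 11.9 ± 0.911 to 7.63 ± 0.571 CPM (SD, n = 3). No gene of this list was past 2-fold.

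Among 19 receptor adaptors and effectors, 5 were higher, 8 lower and 6 did not pass, beside 23.3% higher and 22.4% lower over all features, with a median log2 fold change of -0.16. With genes that share exons summed, 5 were higher, 7 were lower and the median was -0.07. SHC1 summed with PYGO2 no longer passed (adjusted p = 0.690 from edgeR's test). The largest rises were those of the adaptor gene NCK2 (1.00) and the transcription factor gene STAT3 (0.89) on the log2 scale. With each gene counted alone, EPS8, an EGFR substrate, and GAB1, a docking protein, had the lowest values (-0.33 and -0.32), with RASA1, named after its value was seen, also at -0.32 (-0.34 when summed with CCNH). GAB1 did not pass under limma-trend on FPKM values (adjusted p between 0.0817 and 0.118 over its 3 settings). The counts of this list moved with the settings, from 3 to 5 higher and from 2 to 8 lower.

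Receptor internalisation and degradation showed the fewest differences, with 0 higher, 3 lower and 15 not passing of 18 tested, beside 45.7% of all features that differed. The CBL-binding adaptor genes CD2AP and SH3KBP1 had log2 fold changes of -0.65 (adjusted p = 1.27e-04) and -0.54 (adjusted p = 1.44e-04 from edgeR's test). Between 0 and 2 genes were higher and between 2 and 5 lower under the other settings. Among 10 other brakes on the receptor, 3 were higher, 3 lower and 4 did not pass, beside the same 45.7% of all features. The phosphatase gene PTPRJ (0.70) and LRIG2 (0.32), a relative of LRIG1, had the largest rises, and SOCS4 (-0.60) and the phosphatase gene PTPN12 (-0.35) the largest falls, all as log2 fold changes.

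In the list of ERK transcriptional output, genes used as a readout of the kinase cascade below EGFR, 3 of 14 tested genes were higher, 9 were lower and 2 did not pass, beside 23.3% higher and 22.4% lower over all features, with a median log2 fold change of -0.66. EGR1, an immediate early transcription factor gene, rose from 2.66 ± 0.320 to 6.55 ± 1.57 CPM, and DUSP4, which encodes an ERK phosphatase, rose from 15.4 ± 0.787 to 28.7 ± 2.85 CPM (SD, n = 3). FOSL1, an AP-1 subunit gene, fell from 3.76 ± 0.417 to 1.66 ± 0.183 CPM, and IER3, another immediate early gene, fell from 13.7 ± 0.936 to 6.12 ± 0.888 CPM (SD, n = 3). The lower genes also included SPRY2 (-1.11, adjusted p = 5.90e-06), SPRY4 (-0.99), DUSP6 (-0.96), ETV5 (-0.85) and ETV4 (-0.61), as log2 fold changes in edgeR's test, all named after their values were seen. SPRY2, SPRY4 and DUSP6 encode feedback inhibitors of the ERK cascade, and ETV4 and ETV5 encode transcription factors of the ETS family. The counts of this list were 3 higher and 9 lower under all 16 alternatives.

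**Figure D5:**
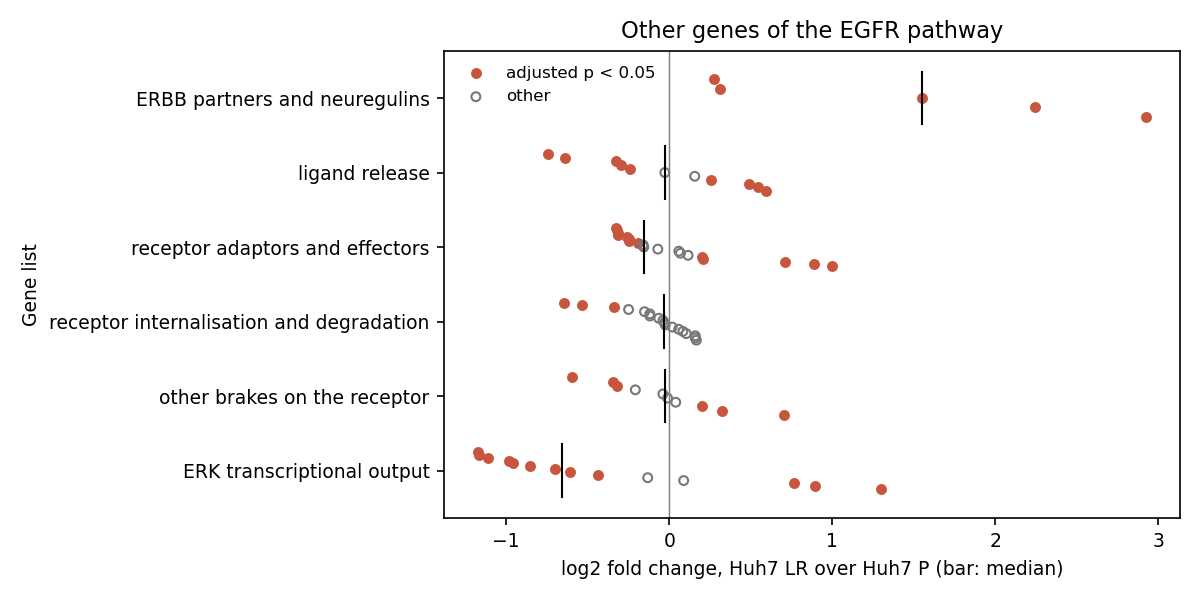
Log2 fold change of each tested gene of 6 pathway lists, filled where the adjusted p was under 0.05, with a bar at the median of the list. With each gene counted alone, genes of ERBB partners and neuregulins lie above 0 (the sum of NRG4 and FBXO22 is at -0.24). Genes of ERK transcriptional output have a median of -0.66, and the other medians lie between -0.16 and -0.02.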

How the data were processed

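RNA was sequenced from 3 samples each of Huh7 P and Huh7 LR, as poly(A) RNA in NEBNext Ultra libraries per the labels. The authors deposited read counts per gene, not normalized, and FPKM values, which they scaled for transcript length and library size. The submitters' processing notes name TopHat2, Cufflinks and DESeq without their roles, and a mouse build although the identifiers are human, so the build is unsettled. The extraction text in the labels describes insect larvae. Annotation and strand setting are not given in the sources used here.

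A total of 34 lines of text that name no gene were left out. Counts were tested in R 4.3.3 with edgeR 4.0.16 (filterByExpr with a minimum count of 10 and a minimum total of 15, TMM, quasi-likelihood test, Benjamini-Hochberg adjustment over 17531 features). Standard errors were obtained by dividing each log2 fold change by the root of its F value. A difference needed an adjusted p under 0.05, and a call past 2-fold an adjusted p under 0.001. Shares and sums were compared by the exact permutation test. CPM values use TMM-scaled totals, and the deposited FPKM values were used for levels between genes. Places come from GENCODE release 29, which holds all 19974 identifiers. All 3 promoters searched for were found in RefSeq.

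The members and lists were chosen with earlier results of these data known. By rule, genes named from the lists are the 2 largest rises and 2 largest falls that differed, did not overlap and reached a mean of 1 CPM. Named after their values were seen were SEC61G, LANCL2, MTHFD2L, SUMF2 and SLC25A26, and from the lists NRG1, RASA1, SPRY2, SPRY4, DUSP6, ETV4, ETV5, SHC1 and ADAM15. Alternatives were DESeq2 1.42.0, limma 3.58.1 on log2(FPKM + 0.1) and log2(FPKM + 1) with at least 0.5 FPKM in 3 libraries, other scaling and filters, a replicate block and each library left out. In data simulated for Huh7 LR against Huh7 P, 199 of 200 changed genes were recovered by edgeR among 17533 features, with 9 unchanged features passing. In the simulation, far fewer features changed than differed here, by larger folds than those of EGFR and EGF. The same dispersion was used throughout, so these counts do not carry over to the reported calls. Figures used matplotlib 3.10.9. Protein sequences were not used here.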

Additional observations from a re-analysis of the deposited data

How the results depend on the processing

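The 33 single genes compiled here gave 496 values under other settings, of which 491 stayed in direction and did not cross an adjusted p of 0.05, 3 crossed it (GAB1 on FPKM) and 2 changed direction. These 2 were LRIG1 and NRG4. LRIG1 had a log2 fold change of 0.0035 without Huh7 LR replicate 2 and a range of -0.0781 to 0.0035 over the libraries left out. NRG4 had -0.24 when summed with FBXO22, a fall that comes from FBXO22, since the NRG4 counts rose. The number of members that differed stayed at 5 higher and 0 lower under all 15 alternatives. Under limma-trend with at least 0.5 FPKM in 3 libraries, BTC and HBEGF passed the filter only through Huh7 LR. In Huh7 P they had 0.176 to 0.498 FPKM (BTC) and 0.304 to 0.326 FPKM (HBEGF). Those settings are therefore not read as support for BTC and HBEGF. Of the members past 2-fold, 1 remained with limma-trend on log2(FPKM + 1) and 1 with limma-trend on log2(FPKM + 0.1) without a filter, and between 1 and 3 with each library left out. The larger pseudocount shortens the fold changes of low genes, and otherwise the cause was not tested. Summed with genes that share their exons, SHC1 (0.04 with PYGO2) and ADAM15 (adjusted p = 0.0702 with DCST1), both named after their values were seen, no longer differed. With CPM in place of FPKM, the summed ligands were 1.64-fold higher, the AREG share 11.6 points higher and the EGF share lower (-15.6 points), since long transcripts then weigh more.

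With the replicate number as a block, 5 members were higher and 3 past 2-fold, with 4089 features higher and 4033 lower in place of 4093 and 3923. Same-numbered libraries of the lines had deviations that correlated at 0.0893, 0.106 and 0.0358 across genes. These values are small, but each library correlated best with its own number. Whether the numbers mark pairs was not tested. The Huh7 P libraries held 39 to 101 counts of BTC, 53 to 57 of HBEGF and 55 to 82 of AREG, and AREG stayed past 2-fold in every setting.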

Other observations

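The ratio of deposited counts to FPKM gives the transcript length that the authors' scaling used, if they scaled to the same library totals. For EGFR it lay between 10448 and 10689 bases over the 6 libraries and for AREG between 1322 and 1354 bases. The FPKM values of EGFR and AREG thus carry the counts scaled by a nearly fixed length, and they hold little further information on isoforms.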
